A study of Mus musculus with 2 samples.

Results

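The miR-23, miR-27 and miR-24 microRNAs (miRNAs) were examined in small RNA libraries of Dicer knockout mouse embryonic stem cells. Members were all table entries named miR-23, miR-24 or miR-27, with any letter or copy number and from either arm of the hairpin, which gave 11 of 1907 entries. Both libraries came from cells labelled Dicer knockout on a 129/Ola background, described as blastocyst-derived embryonic stem cells with E14 as the stage, and grown with serum and LIF on gelatine. They form 1 group of 2 replicates, called library 1 and library 2 after the numbers in their titles. The sample descriptions call the cells C1 and H11, without saying whether these are separate clones, so spread between the libraries may be technical. No library with intact Dicer was analysed here, and no value below compares knockout with normal cells.

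Dicer is the ribonuclease that cuts precursor hairpins, already trimmed by Drosha in the nucleus, into short duplexes. One strand of each duplex, from the 5p or the 3p arm, is then loaded into an Argonaute protein and pairs with messenger RNAs mainly through its seed, bases 2 to 8. The miR-23, miR-27 and miR-24 hairpins lie together at a pair of loci, each thought to be transcribed as 1 precursor, and the 3p arms are the strands usually regarded as functional. In other tissues miR-23 is known to repress glutaminase, miR-27 the adipogenic receptor PPARG, and miR-24 the histone variant H2AX.

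The 23a/27a/24-2 cluster spans 404 bases on chromosome 8 (chr8:84208518-84208921, plus strand, GRCm38.p6). Mir23a and Mir27a overlap no other gene in GENCODE M21, while Mir24-2 lies in an exon of the long noncoding RNA gene Gm26532. The 23b/27b/24-1 cluster spans 792 bases on chromosome 13 (chr13:63300484-63301275, plus strand). All 3 of its hairpins lie within the gene 2010111I01Rik, on the same strand, and opposite an intron of Fancc. Mir23b is intronic there, whereas Mir27b and Mir24-1 overlap annotated exons of this protein-coding gene, including untranslated sequence.

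Sequences from RefSeq (GRCm38.p6) matched 10 of the 11 members; miR-23b-3p had no entry. The 3p arms are shown because they decide which targets can be paired and whether the counts of the clusters can be told apart. Seeds are in capitals.
mmu-miR-23a-3p: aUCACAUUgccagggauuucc
mmu-miR-27a-3p: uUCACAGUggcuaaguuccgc
mmu-miR-27b-3p: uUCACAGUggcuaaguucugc
mmu-miR-24-3p: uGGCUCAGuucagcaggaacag
The miR-27a and miR-27b 3p arms share the seed UCACAGU and differ by 1 substitution, C19U, counted from 1 at the 5′ end of miR-27a-3p. A read that ends before base 19 therefore fits both, and the handling of such reads is not given in the sources used here, so the split between these entries is uncertain. The sequence of miR-24-3p is the same from Mir24-2 and Mir24-1, and its counts cannot be assigned to a cluster. The 5p arms separate the copies more clearly, as the miR-27 pair shows; these are in lower case with the bases 2 to 8 in capitals.
mmu-miR-27a-5p: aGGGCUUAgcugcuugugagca
mmu-miR-27b-5p: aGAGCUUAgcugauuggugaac
These 5p arms are both 22 bases long and differ at 8 positions, the first of them G3A.

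The table summed to 45222 counts in library 1 and to 37476 in library 2, so that 1 count stood for 22.1 and 26.7 CPM, the counts scaled to a table total of 1000000. A count of 0 was taken to allow up to 3 counts, a share of 0.00663% in library 1 and 0.00801% in library 2. Intervals and limits here cover counting error within a library only and hold no spread between libraries. No molecular identifiers are mentioned, so repeated reads of the same molecule could not be told apart, and the intervals may be too narrow. Among markers of embryonic stem cells, 6 of 9 had counts in each library, with 336 and 374 counts in all, and miR-302a-3p, miR-302b-3p and miR-302d-3p were at 0. Most of the stem cell marker counts came from miR-295-3p alone (210 and 251). Of 10 fibroblast and mesenchyme markers 5 had counts in each library, 72 and 53 in all, with miR-199a-5p, miR-214-3p and miR-100-5p at 0. Most of these counts came from miR-10a-5p (45 and 26) and miR-10b-5p (18 and 12), with miR-143-3p at 6 and 12. Every other marker in this list had at most 2 counts in a library. Endothelial markers had 1 and 4 counts, and blood markers 27 and 16. Of 5 blood markers 3 had counts in each library, mostly miR-150-5p (17 and 11), while miR-223-3p and miR-451a were at 0. The part of such cells in the values below was not tested.

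Most counts of these clusters came from miR-27b-3p, and the other members were at or near 0. The 11 members had 41 counts in library 1 and 37 in library 2. Their share of all counts was 0.0907% (95% Wilson interval 0.0668 to 0.123) and 0.0987% (0.0716 to 0.136), a mean of 0.0947% ± 0.00570 (SD, n = 2). In each library 6 of the 11 members had a count, and 1 member, miR-27b-3p, reached 10 counts, which it did in both. It held 73.2% of the members' counts in library 1 (58.1 to 84.3) and 73.0% in library 2 (57.0 to 84.6).

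The PPARG-repressing strand miR-27b-3p was counted 30 times in library 1 and 27 times in library 2. This corresponds to 663 CPM and 720 CPM, a mean of 692 ± 40.4 CPM (SD, n = 2). The libraries lay close together and their Wilson intervals, 465 to 947 CPM and 495 to 1048 CPM, overlapped over most of their length. It ranked 53rd of the 1907 entries in library 1 and 49th in library 2. Among the 798 entries from 3p arms it ranked 15th in both libraries. Entries with any count had a median of 3 counts in each library, so miR-27b-3p stood well above the typical detected entry.

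**Figure D1:**
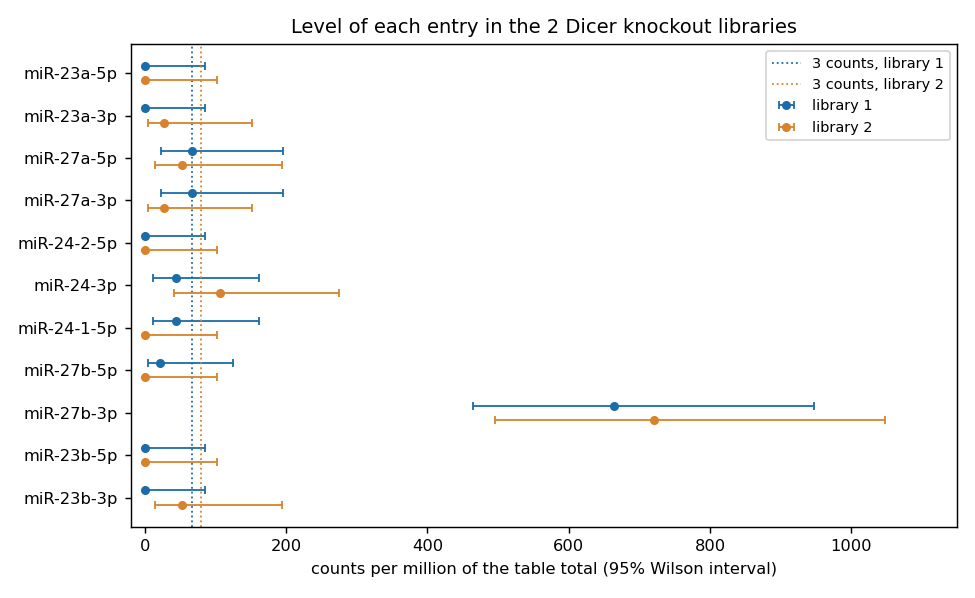
Level of each of the 11 entries in CPM of the table total (x axis), with points for library 1 and library 2, bars for 95% Wilson intervals and dotted lines at 3 counts in each library. The entry miR-27b-3p, at 663 and 720 CPM, is the only one whose intervals lie wholly above those of every other entry in both libraries.

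The near-identical strand miR-27a-3p had 3 counts in library 1 and 1 in library 2. Its opposite strand, miR-27a-5p, had 3 and 2 counts, and so few counts do not order these strands. The opposite strand of miR-27b, miR-27b-5p, had 1 count in library 1 and 0 in library 2. For the shared strand miR-24-3p there were 2 counts in library 1 and 4 in library 2. Of its 5p partners, miR-24-1-5p had 2 and 0 counts and miR-24-2-5p had 0 in both libraries, which counting error does not separate. The glutaminase-repressing strands were at 0 in library 1: miR-23a-3p had 0 and 1 counts, and miR-23b-3p had 0 and 2. No count was seen in either library for miR-23a-5p or miR-23b-5p. These 10 members had at most 4 counts each and Wilson intervals that overlapped one another within each library, so no order among them can be read at this depth.

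Members of 1 cluster did not share a level in the deposited counts. Mature sequences of the members with a RefSeq entry are 21 to 23 bases long. Similar length does not show that equal amounts of different strands would give equal counts in these libraries. That was not tested, so the ratios and arm shares here describe counts. In the 23b/27b/24-1 cluster, both miR-27b arms had 31 counts in library 1 and both miR-23b arms had 0. Taking 0 as 3 counts over these arms makes miR-27b 10.3-fold higher in that library. This value leaves out the counting error of the 31 counts and is not an exact lower limit. In library 2 the miR-27b and miR-23b arms had 27 and 2 counts, a ratio of 13.5 with an exact interval of 3.39 to 117. The same side was higher in the 23a/27a/24-2 cluster, where the miR-27a arms had 6 and 3 counts and the miR-23a arms 0 and 1, numbers too small to give a firm ratio. Summed over copies and arms, miR-27 had 37 and 30 counts, miR-24 had 4 and 4, and miR-23 had 0 and 3. The miR-27 entries thus made up 90.2% of the members' counts in library 1 (Wilson interval 77.5 to 96.1) and 81.1% in library 2 (65.8 to 90.5). The miR-24-3p sequence is the same at both loci, and how reads that fit both were counted is not given. Its counts, and the miR-27 shares, depend on that handling. Reads that fit both miR-23a-3p and miR-23b-3p could not be judged without a miR-23b-3p sequence.

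**Figure D2:**
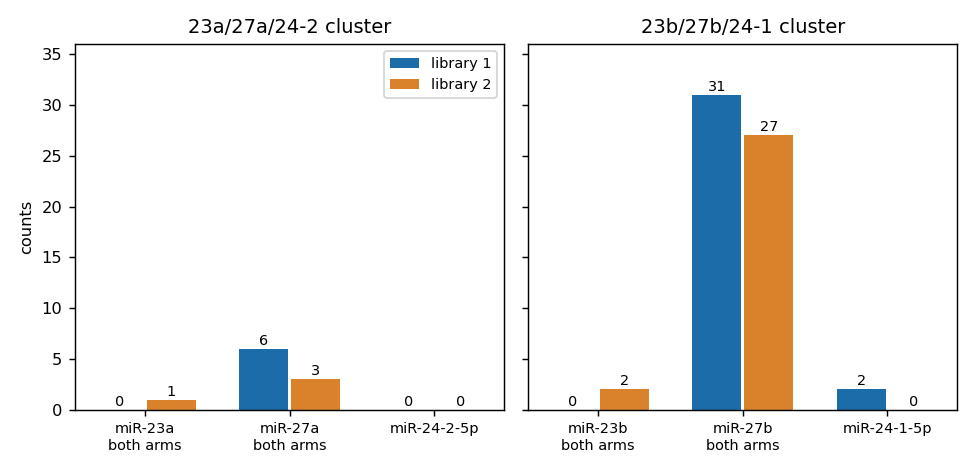
Counts (y axis) of entries that belong to 1 cluster by name, for library 1 and library 2, with the 23a/27a/24-2 cluster on the left and the 23b/27b/24-1 cluster on the right. The miR-27b bars, 31 and 27 counts, exceed all other bars; miR-24-3p is left out because both clusters can give it.

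The clusters were then set against each other using the entries that belong to 1 of them by name. The 23a/27a/24-2 cluster had 6 counts in library 1 and 4 in library 2, and the 23b/27b/24-1 cluster had 33 and 29. The share of the 23a/27a/24-2 cluster was 15.4% in library 1 (Wilson interval 7.25 to 29.7) and 12.1% in library 2 (4.82 to 27.3), a mean of 13.8% ± 2.31 (SD, n = 2). Both intervals lay below 50%. The ratio of the 23b/27b/24-1 cluster to the other was 5.50 (exact interval 2.28 to 16.1) and 7.25 (2.55 to 28.4). The 3p arms of miR-23 and miR-27 alone gave a share of 7.77% ± 1.87 (SD, n = 2) to the 23a/27a/24-2 cluster. The 5p arms separate the copies more clearly but had few counts. The 23a/27a/24-2 cluster had 3 in library 1 and 2 in library 2, and the 23b/27b/24-1 cluster had 3 and 0. The 5p share of the 23a/27a/24-2 cluster was 50% in library 1 (Wilson interval 18.8 to 81.2), which overlapped the interval of its whole share. In library 2 it was 100% (34.2 to 100), which lay above. So few counts cannot show that the 5p arms lack the excess. In counts, the excess of the 23b/27b/24-1 cluster came mainly from miR-27b-3p over miR-27a-3p, which differ at base 19 alone. The share, the ratios and the 3p value all depend on how reads that fit both copies were counted. Adding the miR-24-3p counts in equal parts to both clusters gave a mean share of 16.6%.

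The arms of the hairpins were compared because Dicer normally releases both. Over all members 35 of 41 counts in library 1 came from a 3p arm, which is 85.4% with a Wilson interval of 71.6 to 93.1. In library 2 it was 35 of 37, which is 94.6% (82.3 to 98.5). The mean was 90.0% ± 6.53 (SD, n = 2). Here too miR-27b-3p decided the value: without it the 3p share was 45.5% in library 1 (5 of 11 counts, 21.3 to 72.0) and 80.0% in library 2 (8 of 10, 49.0 to 94.3), a mean of 62.7% ± 24.4 (SD, n = 2).

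For miR-27 with its copies merged, which does not depend on the split between them, 33 of 37 counts in library 1 were 3p, a share of 89.2% (Wilson interval 75.3 to 95.7), and 28 of 30 in library 2, a share of 93.3% (78.7 to 98.2). The merged share still depends on whether reads that fit both copies were all counted, and once each, which is not given. As deposited, the 3p shares of the copies lay apart. Of the miR-27b counts, 30 of 31 fell on the 3p arm in library 1, a share of 96.8% (Wilson interval 83.8 to 99.4), and 27 of 27 did so in library 2, a share of 100% (87.5 to 100). Of the miR-27a counts, 3 of 6 fell on the 3p arm in library 1, a share of 50% (18.8 to 81.2), and 1 of 3 in library 2, a share of 33.3% (6.15 to 79.2). The intervals of the copies did not overlap in either library, though those of miR-27a are wide and rest on 9 counts in all. The split of 3p reads between the copies at base 19 is uncertain, and so is this difference. For miR-24, whose copies were merged, the 3p arm held 2 of 4 counts and 4 of 4, which leaves its arm use unresolved.

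The other 771 hairpins listed with both arms had the opposite majority. Their 3p arms held 17.3% of counts in library 1 (Wilson interval 16.6 to 18.0) and 22.5% in library 2 (21.6 to 23.4). Without the 3 most abundant of them, the shares were 33.0% (31.7 to 34.3) and 39.1% (37.7 to 40.6). In both libraries the interval of the members lay above these. No test of this difference was made. Without miR-27b-3p the members' intervals, 21.3 to 72.0 and 49.0 to 94.3, still lay above those of all other hairpins in both libraries. Against the other hairpins without the 3 most abundant, they overlapped in library 1 and lay above in library 2. By hairpin, 58 had at least 10 counts in each library, and 17 of them had more 3p than 5p counts in both, miR-27b among these. With a mean 3p share of 98.4% it ranked 9th of the 58, whose median was 15.8%. Its share thus lay far above the median, but a strong 3p majority was not particular to miR-27b.

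**Figure D3:**
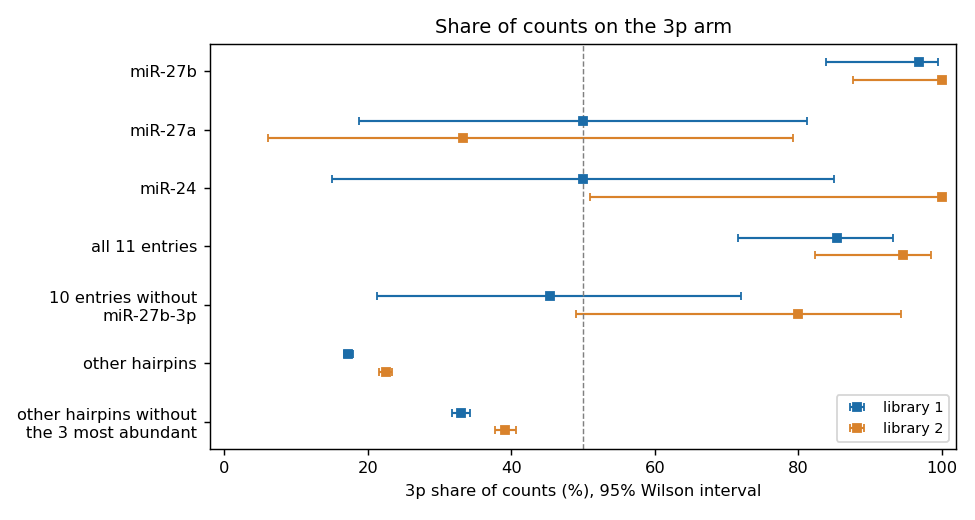
Share of counts on the 3p arm in percent (x axis) for the hairpins and sets named on the left, with squares for library 1 and library 2 and bars for 95% Wilson intervals; the dashed line marks 50%. The miR-27b shares, 96.8% and 100%, lie above the miR-27a shares, 50% and 33.3%, and above those of the other hairpins.

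**Figure D4:**
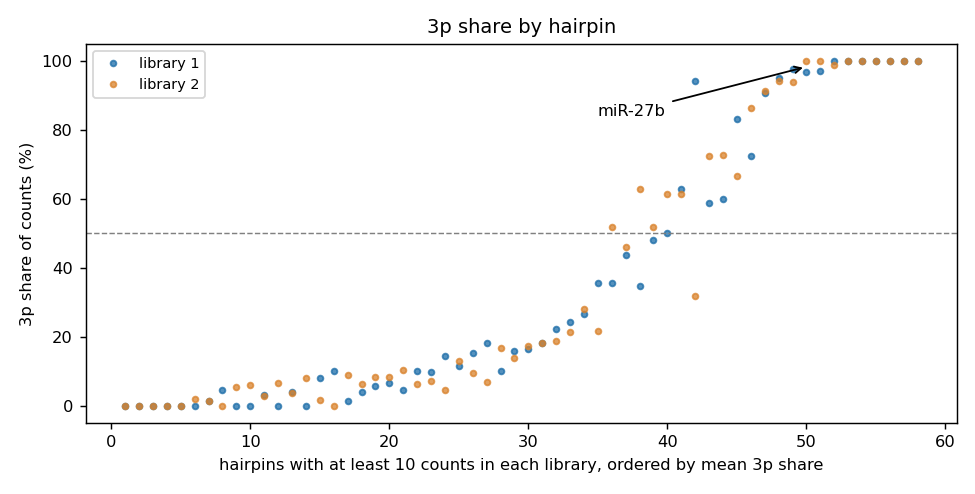
The 3p share of counts in percent (y axis) for the 58 hairpins that reached 10 counts in library 1 and also in library 2, ordered by the mean over library 1 and library 2 (x axis). Each hairpin has 1 point per library, and miR-27b stands 9th from the top at a mean of 98.4%.

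Other miRNA families with several loci were set beside the clusters. The 15 entries of the miR-15, miR-16, miR-322 and miR-503 family, known for restraining the cell cycle, held 0.463% ± 0.0288 of all counts (SD, n = 2). The 10 entries of miR-181 held 0.181% ± 0.0427, and the 10 of miR-26 and miR-101, which target the methyltransferase EZH2, held 0.214% ± 0.0112. Each mean was above the 0.0947% ± 0.00570 of the miR-23, miR-27 and miR-24 entries. In library 1 the Wilson interval of miR-181, from 0.119% to 0.191%, overlapped theirs; the other intervals did not overlap theirs in either library. The 3p arms of these families held 13.1% ± 0.561, 20.5% ± 2.17 and 16.9% ± 7.16 of their counts in the same order (SD, n = 2), against 90.0% ± 6.53 for miR-23, miR-27 and miR-24. No test of these differences was made. The families were chosen with earlier results of these data known and were not matched for the arm usually loaded. The arm contrast therefore depends on which families were set beside the clusters. Hairpins outside these families reached similar 3p shares, such as miR-92a with 97.6% in library 1 and 94.0% in library 2. Of the 58 hairpins compared above, 17 leaned to the 3p arm in both libraries, 36 to the 5p arm, and 5 were mixed.

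The libraries were compared with each other entry by entry, setting an entry's count against all remaining counts in a two-sided Fisher's exact test; p-values were adjusted by the Benjamini-Hochberg method over all 129 entries that had at least 10 counts in both libraries together. An entry was called where the adjusted p-value was under 0.05 and the CPM values differed 2-fold or more. The test compares 2 libraries of the same genotype, and over all entries tested 7.75% were called. Of the 11 members only miR-27b-3p had enough counts to be tested, and 0 were called by Fisher's exact test; at an unadjusted p-value below 0.05 there were also 0. The level of miR-27b-3p was 1.09-fold in library 2 relative to library 1, with an exact interval of 0.621 to 1.89 (Fisher's exact test, adjusted p = 0.942). On the log2 scale the difference was 0.12, beside a median of -0.05 over all entries tested. The interval leaves room for a difference of up to 1.89-fold, so equality of the libraries was not shown.

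Entries near miR-27b-3p in level in both libraries were sought by distance in log2(CPM + 1). The nearest 3 were miR-423-5p with 28 and 28 counts, miR-30e-5p with 27 and 27, and miR-293-3p, a strand of the embryonic stem cell miR-290 cluster, with 34 and 29. With 2 libraries this likeness says only that the levels were similar.

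Seeds were compared over the 1623 of 1907 entries with a RefSeq sequence. No entry outside the members had the miR-27 seed UCACAGU or the miR-23a seed UCACAUU. The miR-24 seed GGCUCAG was found in 4 other entries, miR-5124b, miR-6369, miR-6410 and miR-6413, all with 0 counts in both libraries. A relative of miR-27 by sequence is miR-128-3p, a miRNA abundant in brain, which holds 8 bases of miR-27b-3p shifted by 1 position.
mmu-miR-128-3p: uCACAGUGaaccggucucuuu
It had 2 counts in library 1 and 0 in library 2. Of all entries with a sequence that carry the seed UCACAGU, miR-27b-3p therefore held 30 of 33 counts in library 1 and 27 of 28 in library 2.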

How the data were processed

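Small RNA of 2 Dicer knockout samples was sequenced from TruSeq small RNA libraries, per the labels' protocols. The table the authors deposited holds raw counts, as whole numbers, for each mature miRNA, with 1 column per sample. The submitters' processing notes name cutadapt, STAR, featureCounts and mm10; the miRNA annotation and the handling of shared reads are not given in the sources used here. All 1907 rows name a miRNA.

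Counts were scaled to the table total (CPM). Shares have 95% Wilson intervals per library, and ratios of counts exact binomial intervals. With 1 library on each side no edgeR test can be fitted, and Fisher's exact test was used. In counts simulated with counting error only, it called 189 of 200 entries changed 4-fold and 2 of 1170 unchanged ones. Changed entries were drawn from those with at least 10 counts in both libraries together, outside the 10 most abundant. Their share was raised 4-fold in 1 library and kept in the other, so fewer may be found at the real depth. The simulation holds no further spread between libraries, whereas 7.75% of the entries tested were called between the real ones. Every member was named, with entries of the same seed and the 3 nearest in level. Numbered copies of a hairpin were merged for arm shares. The members and lists were chosen with earlier results of these data known. Positions and sequences come from RefSeq (GRCm38.p6), the assembly behind mm10, and gene context from GENCODE M21. Alternatives changed the denominator, the library scale, the count and fold minimum, the entries used and the libraries. Python 3.11.15, scipy 1.17.1, pandas 2.3.3 and edgeR 4.0.16 (TMM factors only) were used.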

Additional observations from a re-analysis of the deposited data

How the results depend on the processing

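Depth limits nearly every comparison: 10 of the 11 members had too few counts for a test. The mean share of the members, 0.0947%, was 0.133% without the most abundant entry in the denominator, 0.414% over entries numbered 1000 or below, and 0.0707% over entries with at least 10 counts in both libraries; the first pair follows from the smaller denominator and the last from the loss of 10 members. The mean 3p share, 90.0%, was 62.7% without miR-27b-3p and 98.4% over hairpins that reached 10 counts in both libraries, which leaves miR-27b alone. The mean share of the 23a/27a/24-2 cluster, 13.8%, was 7.77% over 3p arms of miR-23 and miR-27 and 16.6% with miR-24-3p added in equal parts. Over 5p arms, an alternative chosen after seeing the data, it was 75% on 6 counts in library 1 and 2 in library 2. The miR-23 entries alone gave no share, since library 1 had 0 counts of them. At a minimum of 50 counts 0 members were detected in both libraries, against 1 at 10 counts. Leaving out a library gave 0.0907% to 0.0987% for the members' share, 85.4% to 94.6% for the 3p share and 12.1% to 15.4% for the cluster share. No member was called under any of the 7 other scales, fold minimums and count filters of Fisher's exact test. The log2 ratio of miR-27b-3p stayed positive, from 0.12 to 0.43; the latter is over entries numbered 1000 or below, where the median of all entries tested moved from -0.05 to 0.22. The 3p share of the other hairpins, 19.9%, was 36.1% without the 3 most abundant, also chosen after seeing the data. No paired analysis was possible because the samples form a single group.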
